A study of Mus musculus with 2 samples.

Results

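The interleukin 6 family and STAT3 axis was followed here through 10 genes, found by their symbols among the 20003 genes of the count table. They were the ligands Il6, Lif, Osm and Il11, the receptor chains Il6ra, Il6st, Lifr and Osmr, the transcription factor Stat3 and its feedback inhibitor Socs3. The series asked what an inhibitor of Hedgehog signalling does to the transcriptome of macrophages, and it held 2 RNA sequencing libraries. In the library labelled M2+GANT61 the cells had received 10 µM GANT61, a small molecule inhibitor of the GLI transcription factors that carry out Hedgehog signalling. In the library labelled M2+DMSO they had received DMSO, the solvent. Both were labelled as RAW 264.7, an established mouse macrophage line grown with 10% serum, and both groups also received 20 ng/mL M-CSF and 10 ng/mL IL-4, which drives alternative (M2) activation. GANT61 or DMSO preceded IL-4 by 4 h. The labels state the time with IL-4 both as 15 min and as 24 h, and the values cannot be tied to either.

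Cytokines of the interleukin 6 family signal through a shared receptor chain, gp130, which Il6st encodes. Interleukin 6 and interleukin 11 first bind their own alpha chains, while leukemia inhibitory factor and oncostatin M join gp130 to the LIF receptor or the oncostatin M receptor. The assembled receptor activates JAK kinases, which phosphorylate STAT3, and STAT3 induces Socs3, whose protein binds gp130 and JAK and ends the signal. In macrophages the family is known both for acute inflammatory output and for modulating the response to IL-4 through Il4ra.

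The estimated counts of reads per gene, rounded, summed to 57705874 in the GANT61-labelled and 61632784 in the DMSO-labelled library. Reads given for a gene below are these rounded estimates. With 1 library per group no difference has a replicate check, no test between conditions was made, and the 95% intervals cover counting error only. The markers did not match a pure macrophage line. All 12 macrophage markers were at 10 CPM (counts per 1000000) or more in both libraries, but so were 61 of 75 measured markers of 8 other cell types. All markers listed for fibroblasts (led by Col3a1 and Col1a2), endothelium (led by Pecam1 and Eng) and epithelium (led by Krt18 and Krt8) were among them. In bulk RNA, fewer cells of a type and less RNA per cell cannot be told apart, so each library is named by its label below.

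Of the 10 genes, 6 were higher in the GANT61-labelled library and 0 were lower. A gene counted as higher when its ratio of TMM-scaled counts was 1.5 or more and its interval stayed above 1, and as lower at the inverse. Its CPM, averaged over the libraries, had to reach 1, as it did for all 10 genes. By the same rule 14.1% of all 13939 genes at that level were higher and 10.3% were lower. At a fold of 2 the counts were 4 higher and 0 lower, beside 6.97% and 4.27% of all genes. With the required level raised to 5 CPM they were 4 and 0, beside 11.7% and 8.45%. The median log2 ratio of the 10 genes was 0.78, against -0.01 over all genes. The 10 genes were chosen with earlier results of these data known, so these comparisons are not independent of the data. When the libraries were instead scaled so that the macrophage markers had a median ratio of 1, the counts were 3 higher and 5 lower. That scaling called 182 of the 13939 genes higher and 12881 lower.

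All 4 ligands were higher in the GANT61-labelled library, beside 14.1% of all genes, with ratios from 1.95 to 5.64. Lif, however, turned to 0.676 when scaled to the macrophage markers. Il6 encodes the founding cytokine of the family, an inflammatory and acute phase signal, and lies on chromosome 5 at 30013114 to 30019975 (plus strand). It had 374 reads in the GANT61-labelled and 91 in the DMSO-labelled library. Its ratio was 4.51 (3.59 to 5.76), above 98.8% of all genes considered. Il11, a cytokine of stromal cells linked to fibrosis, lies on chromosome 7 at 4772373 to 4782907 (minus strand). It was the least covered of the 10 genes, with 335 reads in the GANT61-labelled and 65 in the DMSO-labelled library. Its ratio of 5.64 (4.34 to 7.52) was the largest of the 10, and its interval overlapped those of Il6 and Osm.

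Osm encodes oncostatin M, a cytokine made largely by myeloid cells. It lies on chromosome 11 at 4236785 to 4241026 (plus strand), and had 1644 reads in the GANT61-labelled and 387 in the DMSO-labelled library. Its ratio was 4.67 (4.19 to 5.24). Lif, a cytokine that also maintains mouse embryonic stem cells, is the next annotated gene, 16.5 kb away at 4257568 to 4272514 on the same strand. Lif had 3529 reads in the GANT61-labelled and 1993 in the DMSO-labelled library, a ratio of 1.95 (1.85 to 2.06). These neighbours therefore differed in ratio, and their intervals were apart. A ratio of 2 was reached by Il6, Osm, Il11 and Socs3 and not by Lif.

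The proximal promoters of Il6, Il11 and Lif are shown because these 3 higher ligands are the genes of the set in which an AP-1 or NF-kappaB motif was found. Each is the 250 bases before an annotated start in RefSeq (GRCm38.p6), 5′ to 3′ on the gene's strand, with motif matches in capitals. For Il11 the more downstream of 2 annotated starts is shown, which lies within an intron of the longer transcript.
Il6, chr5:30012864-30013113, plus strand: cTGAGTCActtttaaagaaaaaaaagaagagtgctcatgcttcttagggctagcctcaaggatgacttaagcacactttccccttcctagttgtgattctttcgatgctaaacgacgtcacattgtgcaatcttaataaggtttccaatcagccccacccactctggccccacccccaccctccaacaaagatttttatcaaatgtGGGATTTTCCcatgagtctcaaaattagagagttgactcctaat
Il11, chr7:4778142-4778391, minus strand: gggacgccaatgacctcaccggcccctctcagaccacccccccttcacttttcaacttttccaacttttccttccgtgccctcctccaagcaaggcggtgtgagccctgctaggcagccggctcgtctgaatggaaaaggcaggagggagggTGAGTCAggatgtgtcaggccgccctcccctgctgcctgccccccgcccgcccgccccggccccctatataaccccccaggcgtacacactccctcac
Lif, chr11:4257318-4257567, plus strand: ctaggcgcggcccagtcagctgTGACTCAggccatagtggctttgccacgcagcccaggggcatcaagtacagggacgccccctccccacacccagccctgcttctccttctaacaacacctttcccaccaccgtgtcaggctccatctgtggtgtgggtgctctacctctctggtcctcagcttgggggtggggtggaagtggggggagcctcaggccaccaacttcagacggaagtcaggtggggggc
The Il6 window holds the NF-kappaB motif at -44 to -35 and the AP-1 motif at -249 to -243, counted back from the start. The AP-1 motif lies at -98 to -92 in the Il11 window and at -228 to -222 in the Lif window.

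Of the 4 receptor chains, 1 was higher by the rule and 0 were lower, beside 14.1% and 10.3% of all genes. All 4 ratios lay below those of the ligands. Scaled to the macrophage markers, all 4 receptor chains met the rule as lower, at 0.290 to 0.523, while the ligands were at 0.676 to 1.95. Under that scaling 12881 of all 13939 genes met the rule as lower, so this does not set the receptor chains apart. Il6ra, the interleukin 6 alpha chain (chromosome 3, 89869324 to 89913196, minus strand), had 2826 reads in the GANT61-labelled and 2063 in the DMSO-labelled library. Its ratio was 1.51 (1.42 to 1.60), at the threshold. It fell short of the rule, at 1.46, when the libraries were scaled by their sums of counts, and turned to 0.523 when scaled to the macrophage markers. Il6st, which encodes gp130 (chromosome 13, 112464070 to 112506860, plus strand), had 16584 reads in the GANT61-labelled and 12918 in the DMSO-labelled library. Its ratio of 1.41 (1.38 to 1.45) excluded 1 and stayed under the threshold, and turned to 0.490 when scaled to the macrophage markers.

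Lifr and Osmr, the partner chains of gp130, lie 215.6 kb apart on chromosome 15 with no protein-coding gene annotated between them. Lifr, the LIF receptor (7090610 to 7197489, plus strand), had 2539 reads in the GANT61-labelled and 3343 in the DMSO-labelled library. Its ratio of 0.836 (0.794 to 0.881) was the only one of the 10 below 1, and it stayed within the fold of 1.5. Osmr, the oncostatin M receptor (6813568 to 6874968, minus strand), had 5919 reads in the GANT61-labelled and 6399 in the DMSO-labelled library. Its ratio was 1.02 (0.983 to 1.06), an interval that spans 1. At this depth a difference in Osmr was thus not detectable beyond counting error.

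Socs3 was higher, at 2.41, and Stat3 did not meet the rule, at 1.21. Scaled to the macrophage markers, Socs3 turned to 0.834 and Stat3 to 0.420, which met the rule as lower. So did 12881 of all 13939 genes under that scaling. Stat3 (chromosome 11, 100886806 to 100939594, minus strand), the factor that carries the signal of gp130 to the nucleus, had 18653 reads in the GANT61-labelled and 16962 in the DMSO-labelled library. Its ratio was 1.21 (1.19 to 1.24), under the threshold. Stat3 and Stat5a, on opposite strands, share 72 of the 9527 exonic bases of Stat3 in GENCODE, so a small part of these reads may not have been told apart. Il6ra likewise shares 242 of 8642 exonic bases with an antisense gene. Socs3 (chromosome 11, 117966079 to 117970336, minus strand) had 11362 reads in the GANT61-labelled and 5198 in the DMSO-labelled library, a ratio of 2.41 (2.33 to 2.49).

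A stretch within the annotated Socs3 locus, upstream of 1 of its annotated starts, is shown because it holds the only STAT motif found in the set, at -154 to -146 from the RefSeq start. That start lies 180 bases upstream of the start of the coding transcript in GENCODE, so this is not the window next to the coding transcript's start. Printed are the 165 bases of the window upstream of any annotated Socs3 exon in it (GRCm38.p6), 5′ to 3′, with the match in capitals.
Socs3, chr11:117969452-117969616, minus strand: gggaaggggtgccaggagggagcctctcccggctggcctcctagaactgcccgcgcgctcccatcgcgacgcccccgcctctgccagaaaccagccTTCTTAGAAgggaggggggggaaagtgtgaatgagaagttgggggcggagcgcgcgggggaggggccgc

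Promoter windows of 250 bases were given for 9 of the 10 genes, 11 windows in all, and not for Osm. Both strands were searched for 4 motifs, and no 2 matches overlapped. The AP-1 motif TGANTCA was in 3 of the 11 windows and in 6.75% of all 32851 promoter windows. The NF-kappaB motif, GGG, any 2 bases and then TTTCC, was in 1 of 11 and in 1.41% of all. The STAT motif TTCNNNGAA was in 1 of 11 and in 7.02% of all. The GLI motif GACCACCCA, the letters bound by the factors that GANT61 blocks, was in 0 of 11 and in 0.225% of all. A match describes these letters in these windows and does not show binding.

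**Figure D1:**
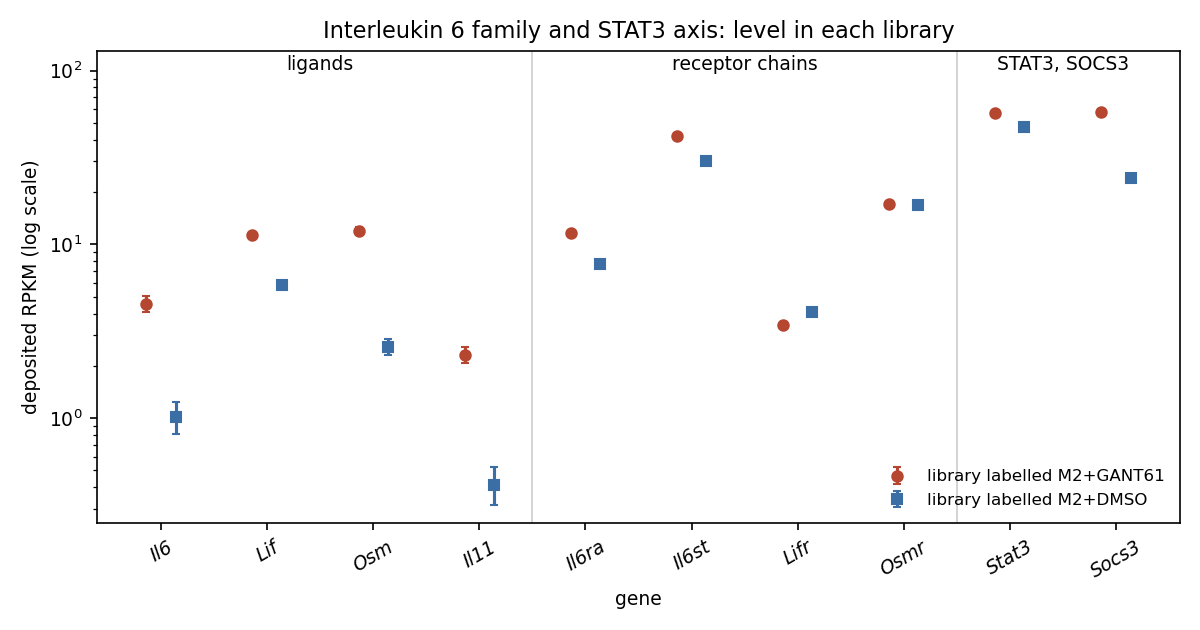
Deposited RPKM (reads scaled to gene length and library size, log axis) of the 10 genes in the library labelled M2+GANT61 (circles) and the library labelled M2+DMSO (squares), 1 library each; bars are 95% exact Poisson intervals, where wider than the symbols. Stat3 and Socs3 sit near 57 in the GANT61-labelled library, and the 4 ligands lie at 11.98 or below in both libraries.

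Per length, the signalling genes and gp130 were the most abundant and Il11 the least. On the scale of deposited RPKM (reads scaled to gene length and library size), Stat3 was at 57.4 in the GANT61-labelled and 47.6 in the DMSO-labelled library. Il6st was at 42.3 RPKM in the GANT61-labelled and 30.03 RPKM in the DMSO-labelled library. Socs3 was at 58.0 RPKM in the GANT61-labelled library, where its Poisson interval overlapped that of Stat3. In the DMSO-labelled library Socs3 was at 24.2 RPKM, and its interval lay apart from those of its neighbours in the order. Osmr followed at 17.0 RPKM in the GANT61-labelled and 16.8 RPKM in the DMSO-labelled library. Osmr had rank 4 in both orders.

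Among the less abundant genes, the rank of Osm changed most. Osm was at 11.98 RPKM in the GANT61-labelled library, where its neighbours Il6ra at 11.6 and Lif at 11.3 overlapped within counting error. In the DMSO-labelled library Il6ra was at 7.74 RPKM, Lif at 5.82, Lifr at 4.10 and Osm at 2.57, all with intervals apart. Il6 was at 4.56 RPKM in the GANT61-labelled and 1.011 RPKM in the DMSO-labelled library. Lifr was at 3.42 RPKM in the GANT61-labelled library and stood there below Il6. Il11 was last in both, at 2.32 RPKM in the GANT61-labelled and 0.410 RPKM in the DMSO-labelled library.

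Quotients between genes of the same library do not depend on how the libraries are scaled, and 7 were computed. The RPKM of Osm over that of its receptor Osmr was 0.704 in the GANT61-labelled and 0.153 in the DMSO-labelled library. This quotient was 4.59 times larger (4.08 to 5.17, exact conditional interval). Lif over Lifr was 3.31 in the GANT61-labelled and 1.42 in the DMSO-labelled library, 2.33 times larger (2.16 to 2.52). Ligand thus exceeded receptor per length for this pair in both libraries, and for Osm in neither.

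Il6 over Il6ra was 0.392 in the GANT61-labelled and 0.131 in the DMSO-labelled library, 3.0 times larger (2.36 to 3.84). Il11 over the shared chain Il6st was 0.0549 in the GANT61-labelled and 0.0137 in the DMSO-labelled library, 4.01 times larger (3.07 to 5.33). Socs3 over Stat3 was 1.011 in the GANT61-labelled and 0.508 in the DMSO-labelled library, 1.99 times larger (1.91 to 2.07). The receptor chains kept closer proportions. Il6ra over Il6st differed by a factor of 1.07 (1.003 to 1.14) and Lifr over Osmr by 0.821 (0.771 to 0.875).

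**Figure D2:**
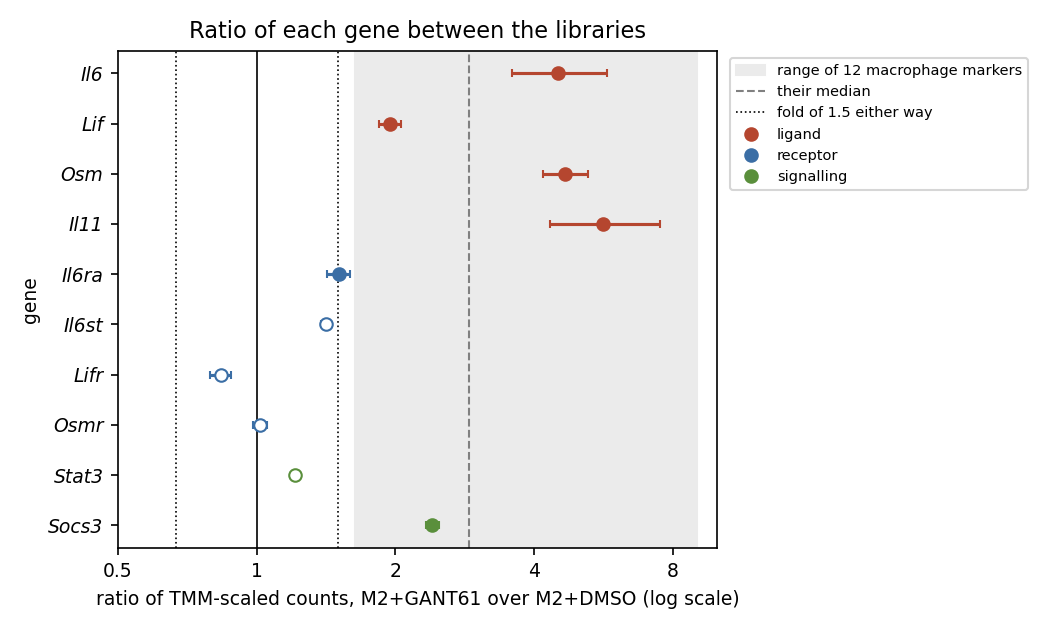
Ratio of TMM-scaled counts of the library labelled M2+GANT61 over the library labelled M2+DMSO (log axis) for the 10 genes, with 95% exact Clopper-Pearson intervals; filled circles met the rule of size and open circles did not, and the shaded band is the range of 12 macrophage markers. Il6, Osm and Il11 lie to the right of the markers' median of 2.89, while Lif, Socs3 and all 4 receptor chains lie to the left of it and would fall below 1 if scaled to that median, as would Stat3.

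Macrophage markers were higher in the GANT61-labelled library beside these genes, and adipocyte markers lower. All 12 macrophage markers met the rule as higher, with ratios from 1.63 to 9.02 and a median of 2.89. Their summed level was 8292 CPM in the GANT61-labelled and 2617 CPM in the DMSO-labelled library, led by Lyz2 and Mrc1. The ratio of Il11 exceeded those of 11 of the 12 markers, those of Il6 and Osm exceeded 10, that of Socs3 exceeded 5 and that of Lif exceeded 3. The ratios of the receptor chains and of Stat3 lay below all 12. Scaled to the median of these markers, Il6 was at 1.56, Osm at 1.62 and Il11 at 1.95. The same scaling placed the median log2 ratio of all genes at -1.54, with 182 genes higher and 12881 lower, against 1972 higher and 1436 lower with TMM. The part of the macrophage markers in the ratios of the 10 genes was not tested.

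All 10 adipocyte markers were lower, led by Car3 and Fabp4. Their summed level was 986.1 CPM in the GANT61-labelled and 6274 CPM in the DMSO-labelled library. By the same rule 14.1% of all genes were higher and 10.3% lower. Fibroblast markers, with 0 higher and 1 lower of 10, summed to 9504 CPM in the GANT61-labelled and 9287 CPM in the DMSO-labelled library. Endothelial markers, with 0 higher and 3 lower of 10, summed to 684.5 CPM in the GANT61-labelled and 821.8 CPM in the DMSO-labelled library. Epithelial markers, with 1 higher and 1 lower of 10, summed to 3587 CPM in the GANT61-labelled and 4076 CPM in the DMSO-labelled library. Their part in the values of Lifr, Osmr, Il11 and Lif, which stromal, endothelial and epithelial cells are known to express, was not tested.

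Among blood cell markers, those of neutrophils differed most in their sum. They summed to 723.7 CPM in the GANT61-labelled and 162.2 CPM in the DMSO-labelled library. Of 10 neutrophil markers 4 were higher and 1 lower, beside 14.1% and 10.3% of all genes. The median ratio of those that averaged 1 CPM or more was 4.76, above the 2.89 of the macrophage markers. Ltf and S100a9 led the neutrophil markers. The granule genes Mpo, Elane and Camp and the surface marker Ly6g were each under 1 CPM in both libraries. The lower member was Ngp, with a ratio of 0.584 (0.424 to 0.792), and Retnlg was at 1.12. The 4 higher members were S100a9 at 6.62, Cxcr2 at 6.14, S100a8 at 5.23 and Ltf at 4.33. Mpo, Elane and Camp had ratios of 0.627, 0.593 and 0.589, with intervals that span 1. Ly6g was at 2.57 (1.34 to 5.47). Mpo, Elane, Camp and Ly6g averaged under 1 CPM, so the rule could not call them. The members thus did not share a direction. The part of the neutrophil markers in the ratios of the 10 genes was not tested. T cell markers, led by Il7r and Lck, summed to 255.6 CPM in the GANT61-labelled and 198.6 CPM in the DMSO-labelled library. The 2 higher of 9 were Cd4 at 2.36 and Il7r at 2.34. The others ranged from 0.721 for Cd8a to 1.45 for Cd2, with Cd3e at 0.997. B cell markers, with 1 of 8 higher and led by Cd22 and Cd79a, summed to 165.7 CPM in the GANT61-labelled and 129.5 CPM in the DMSO-labelled library. Mast cell markers, with 2 of 8 higher and led by Kit and Mcpt4, summed to 122.2 CPM in the GANT61-labelled and 96.2 CPM in the DMSO-labelled library. None of the last 3 lists had a lower member, and no marker in any list was at 0.

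**Figure D3:**
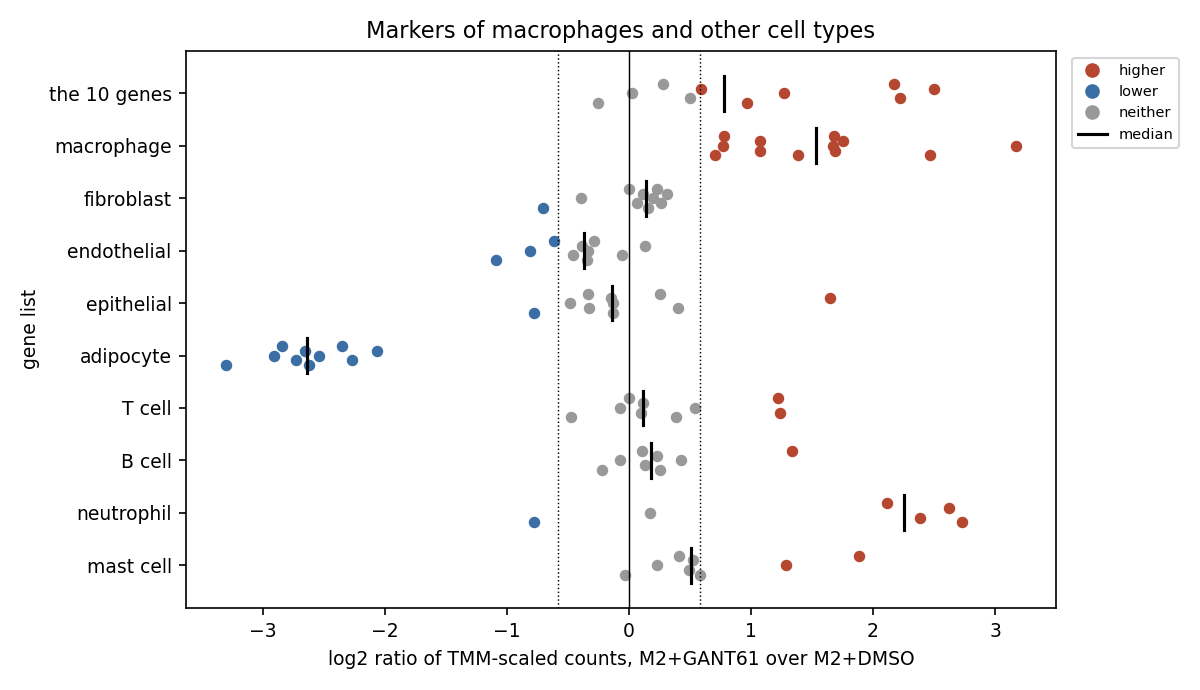
Log2 ratio of TMM-scaled counts, library labelled M2+GANT61 over library labelled M2+DMSO, for the 10 genes and for marker lists, over genes that average 1 CPM or more; each point is a gene, coloured by the rule of size (dotted lines at a fold of 1.5), and black bars are medians. The neutrophil list has the highest median, at 2.25, and the macrophage list follows at 1.53. The adipocyte list has the lowest, at -2.64, and the 10 genes have theirs at 0.78. These 10 include values that turn below 0 if the macrophage median is set to 0.

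Around these 10 genes, 76 genes of the same pathway were listed in 7 lists, and 75 had a row in the table. Of these, 71 averaged 1 CPM or more. In the GANT61-labelled library 21 of these were higher and 5 lower, against the 14.1% and 10.3% of all genes. Their median log2 ratio was 0.31, beside -0.01 over all genes. The lists were chosen with earlier results of these data known. Set to the macrophage markers, the counts were 0 higher and 59 lower, beside 182 and 12881 of all 13939 genes.

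Of 5 genes at this level in the list of other ligands, 1 was higher, 2 were lower and 2 were neither. The shares of all genes were 14.1% higher and 10.3% lower. The median log2 ratio of the 5 was -0.01. Lep, the adipocyte hormone leptin, is not a ligand of gp130, but its receptor also signals through STAT3. Lep had 277 reads in the GANT61-labelled and 3021 in the DMSO-labelled library, a ratio of 0.101 (0.0890 to 0.114). It is also 1 of the adipocyte markers. Ctf1, cardiotrophin 1, had a ratio of 0.429 (0.365 to 0.502). Ebi3, a subunit of interleukin 27, had a ratio of 1.69 (1.39 to 2.06). Of 4 other receptors 0 were called. Il11ra1, the alpha chain for interleukin 11, had a ratio of 1.14 (1.09 to 1.21) and Lepr, the leptin receptor, of 1.12 (0.988 to 1.27).

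Among JAK kinases and adaptors, 2 of 9 were higher and 1 lower, beside 14.1% and 10.3% of all genes. The scaffold proteins Gab1 and Gab2 had ratios of 2.15 (2.03 to 2.29) and 2.06 (1.94 to 2.19). Shc1, an adaptor to the RAS pathway, had a ratio of 0.645 (0.625 to 0.666). Jak1, the main kinase of gp130, had a ratio of 1.16 (1.13 to 1.18), and Jak2 of 0.750 (0.738 to 0.762). Ptpn11, the phosphatase SHP2, had a ratio of 1.16 (1.13 to 1.19). Of 5 other STAT factors, Stat4 was higher at 1.51 (1.38 to 1.66), close to the threshold, and the others were neither higher nor lower by the rule. Stat4 fell short of the rule when scaled by sums of counts or by upper quartiles.

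Of 15 negative regulators, 1 was higher and 0 lower, beside 14.1% and 10.3% of all genes, with a median log2 ratio of 0.23. The higher member was Ptprc, the phosphatase CD45 and a marker of all leukocytes, at 1.80 (1.76 to 1.84). Socs1, a relative of Socs3 induced by interferons and IL-4, had a ratio of 0.907 (0.857 to 0.959), against 2.41 for Socs3. Pias3, which inhibits DNA binding of STAT3, had a ratio of 0.722 (0.672 to 0.776).

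The list of receptor shedding and Il6 mRNA control had 3 of 9 higher and 0 lower, beside 14.1% and 10.3% of all genes. Adam17, the protease that releases soluble interleukin 6 receptor, had a ratio of 1.74 (1.69 to 1.80). Rhbdf2, which carries ADAM17 to the cell surface, had a ratio of 1.67 (1.59 to 1.75). Zc3h12a, the endonuclease Regnase-1, which degrades Il6 mRNA, had 1929 reads in the GANT61-labelled and 662 in the DMSO-labelled library, a ratio of 3.21 (2.94 to 3.51).

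The list of STAT3 targets from the literature held 24 genes, 13 of them higher and 2 lower, beside 14.1% and 10.3% of all genes. Its median log2 ratio was 0.69. This list too was chosen with earlier results of these data known, so the comparison with all genes is not independent of the data. With the macrophage marker median set to 1, 0 of the list were higher and 15 lower, beside 182 and 12881 of all 13939 genes. Il4ra, which encodes the alpha subunit of the IL-4 receptor, had 31317 reads in the GANT61-labelled and 9157 in the DMSO-labelled library, a ratio of 3.77 (3.68 to 3.86). Timp1, a metalloproteinase inhibitor, had a ratio of 3.61 (3.49 to 3.73), and Saa3, an acute phase protein, of 3.28 (3.17 to 3.40). The anti-inflammatory cytokine Il10 had 799 reads in the GANT61-labelled and 325 in the DMSO-labelled library, a ratio of 2.71 (2.38 to 3.09). Cebpd, a transcription factor of the acute phase response, had a ratio of 2.54 (2.39 to 2.69).

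The lower members of this list were Hp and Lrg1, both also acute phase genes. Hp, haptoglobin, which adipocytes also express, had 11578 reads in the GANT61-labelled and 49645 in the DMSO-labelled library, a ratio of 0.257 (0.252 to 0.262). Lrg1, named after its value was seen, had a ratio of 0.585 (0.559 to 0.611). Macrophage markers stood at a median log2 ratio of 1.53 beside these targets, and their part in the count was not tested. Phosphorylation of STAT3 was not measured.

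**Figure D4:**
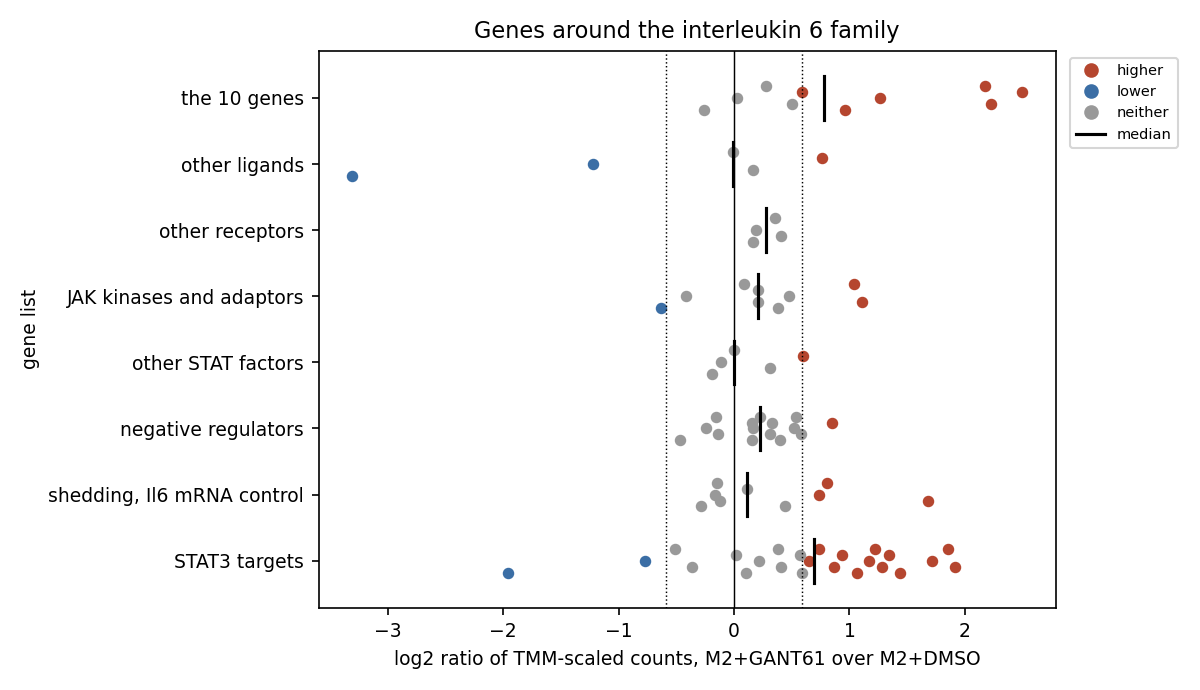
Log2 ratio of TMM-scaled counts, library labelled M2+GANT61 over library labelled M2+DMSO, for the 10 genes and for 7 lists of other pathway genes, over genes that average 1 CPM or more; each point is a gene, coloured by the rule of size (dotted lines at a fold of 1.5), and black bars are medians. The STAT3 targets have a median of 0.69 and the 5 other ligands of -0.01, with Lep far to the left, and with the macrophage median set to 0 no point of the 7 lists would be called higher.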

How the data were processed

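Messenger RNA libraries, 1 per group, were sequenced on an Illumina instrument per the labels. The authors deposited estimated counts per gene (expected counts, not normalized) and RPKM values, each with 1 column per library. Columns were tied to samples by the treatment in their names. The submitters' processing notes list the tools cutadapt, STAR, HISAT2, Partek and SAMtools, and mm10 and hg19 as builds. Roles, annotation and strand setting are not given in the sources used here. Of the deposited values, 29.3% (GANT61) and 29.5% (DMSO) were not whole. They were rounded, which moved no count of the 10 genes by more than 0.5.

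Counts were scaled by TMM in edgeR 4.0.16 (R 4.3.3) over all genes with reads, and CPM values refer to these scaled totals. Ratios used a prior count of 0.5 per library, with 95% exact Clopper-Pearson intervals (scipy 1.17.1). With 1 library per group, intervals cover counting error only. Reads carried no molecular identifiers, so copies of the same molecule may have been counted as separate reads, and intervals may be too narrow. The interval and the rule of size were run on simulated counts that carried counting error only. These held no replicate spread and no scaling error, so the run cannot check the calls against either. Alternative scalings were DESeq2 1.42.0 size factors, sums of counts, upper quartiles, macrophage markers and the deposited RPKM. The RPKM alternative multiplied the same counts by a common factor between RPKM and counts, and did not use each gene's own RPKM ratio. Other alternatives were a prior count of 2, unrounded counts, a length trend in 20 bins removed, other floors and a fold of 2. Coordinates and promoters are those of RefSeq GRCm38.p6, and exon overlaps those of GENCODE on the same build.

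The members and lists were chosen with earlier results of these data known. Named were all 10 members, up to 6 called genes per list by size of ratio, 8 fixed pathway genes (of which 1 is not reported here) and the 2 most abundant markers per cell type. Further neutrophil and T cell markers were named after their values were seen. The ratios between members were chosen after the data were seen. Of the 76 pathway genes 1, and of the T cell markers 1, had no row in the table used.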

Additional observations from a re-analysis of the deposited data

How the results depend on the processing

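The counts of 6 genes higher and 0 lower among the 10 stayed within 1.5-fold under every alternative except macrophage scaling. They were 5 and 0 with sums of counts or upper quartiles, where Il6ra fell below the fold of 1.5. They were 4 and 0 with a floor of 5 CPM, where Il6 and Il11 dropped out, and 4 and 0 with a fold of 2, where Lif and Il6ra did. With the macrophage marker median set to 1, the counts were 3 and 5, with Il6, Osm and Il11 still higher. Of all 13939 genes, 182 were higher and 12881 lower under that setting. Under this scaling Il6ra turned to 0.523, Lif to 0.676 and Socs3 to 0.834, since the scaling divides every ratio by 2.89. Genes that did not meet the rule also moved, with Il6st at 0.490, Stat3 at 0.420, Osmr at 0.353 and Lifr at 0.290. Osmr also reached 0.988 with sums of counts and 0.986 with the length trend removed. Of the pathway list genes, 0 were higher and 59 lower under macrophage scaling, and 12 and 3 with a fold of 2, against 21 and 5. No paired analysis was possible because each group had 1 library, and no library could be left out for the same reason. Depth limits Il6 and Il11 most, with 91 and 65 reads in the DMSO-labelled library.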
